A study of Mus musculus with 14 samples.

Results

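Fibroblasts and other mesenchymal cells of white nodules are described here, as the cells of 7 nodules with at most 10% mitochondrial UMIs, a UMI for at least 3 of 8 stromal genes (Col1a1, Col1a2, Col3a1, Dcn, Pdgfra, Pdgfrb, Lum and Mgp), and none for Ptprc, Pecam1 or Cdh5. A UMI is a molecular barcode that counts 1 transcript once. Ptprc encodes CD45, carried by blood cells, and Pecam1 and Cdh5 mark endothelium. The rule was met by 1623 of 75548 cells (2.15%), called members below. The measured levels of these genes chose the cells, so their levels are given as a description and were not tested.

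The nodules came from cKO mice on a C57BL/6J background, or in mice 27 and 34 from hosts given cKO cells. The cKO mice carry floxed Eif3e alleles (Eif3e fl/fl), Cγ1Cre and, in part, the Rosa26-YFP LSL reporter. Eif3e codes for a subunit of eIF3, which acts in starting translation and for which 14 genes are counted here. Cγ1Cre is expressed from the Ighg1 locus in activated B cells, so the stromal cells studied here are not the cells in which the deletion is directed. B cell receptors (BCR) were profiled beside RNA in mouse 27 (liver nodule, 12 months), mouse 29 (lung, 12 months), mouse 31 (spleen, 13 months), mouse 33 (thymus, 16 months) and mouse 34 (lung and thymus, 9 months), and T cell receptors (TCR) in mouse 30 (liver, 14 months) and mouse 32 (spleen, 12 months). The study's tables give the nodule of mouse 27 as a secondary tumor in a Rag2-/- recipient, which lacks its own B and T cells, and mouse 34 as a bone marrow chimera made from a mixture of JHT and cKO marrow. The paper's methods describe irradiated Rag2-/- mice as the hosts of such mixed chimeras. Stromal cells of mice 27 and 34 may thus be host cells without floxed Eif3e, and their origin was not tested. The age given for mouse 27 need not be that of the host. There was 1 nodule per mouse and no healthy or Cre-negative nodule was analysed here, so site, age and mouse cannot be told apart.

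Fibroblasts build the extracellular matrix, of which fibrillar collagens and proteoglycans such as decorin (Dcn) are main parts. In lymphoid tissue, reticular stromal cells also make the chemokines that place B and T cells, and in lung, alveolar fibroblasts line the gas exchange walls while adventitial fibroblasts surround vessels and airways. Mural cells wrap vessels, and mesothelial cells cover the surface of organs.

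Member cells were unevenly spread over the nodules. Mouse 29 gave 1486 members among 14078 cells (10.6%, 95% Clopper-Pearson limits 10.1 and 11.1), and mouse 33 gave 107 among 9984 (1.07%, limits 0.879 and 1.29). Mouse 34 followed with 14 among 6869 (0.204%, limits 0.111 and 0.342) and mouse 27 with 11 among 9396 (0.117%, limits 0.0585 and 0.209). Few were found elsewhere, namely 2 among 11367 in mouse 31 (0.0176%), 2 among 10485 in mouse 30 (0.0191%) and 1 among 13369 in mouse 32 (0.00748%). The lung nodule of mouse 29 thus held 91.6% of all members, and only mice 29 and 33 gave 20 or more. Among cells with Ptprc and a Cd3 gene, 100 of 2263 in mouse 29 (4.42%) also held at least 3 of the stromal genes. That share was 0.309% in mouse 33 and 0% to 0.820% over all nodules other than mouse 29. The mean share was 2.39% ± 4.58 (SD, n = 5, median 0.204%) in BCR mice and 0.0133% ± 0.00820 (SD, n = 2) in TCR mice, a TCR minus BCR difference of -2.38 percentage points. This difference was smaller than the SD of the BCR mice. An exact two-sided permutation test over 21 splits gave p = 0.381, where 21 splits allow 0.0476 at best. Every split with mouse 29 in the group of 2 gave a larger difference. A lower share in TCR mice could therefore not reach 0.0476, and nothing is concluded from this test. Without mouse 29 the difference was -0.339 points. A share of cells depends on how well a cell type survives dissociation, and the part of that step was not tested.

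**Figure D1:**
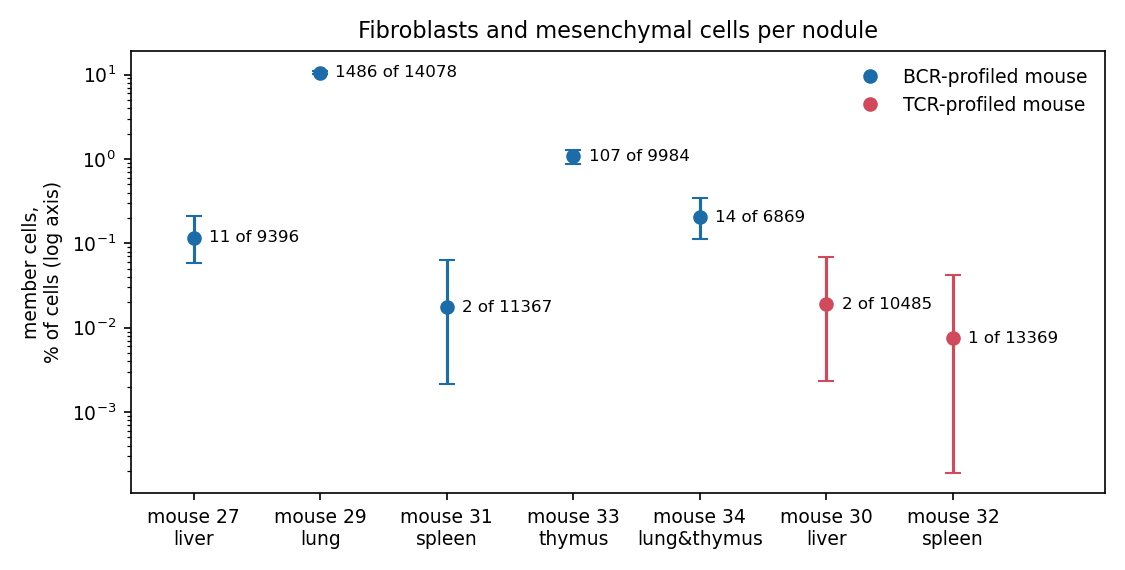
Share of cells that met the rule in each nodule (percent, log axis, 1 point per mouse with 95% Clopper-Pearson intervals, colored by the receptor profiled). The lung nodule of mouse 29 (10.6%) lies above the thymus nodule of mouse 33 (1.07%), and the other 5 nodules lie at or under 0.204%.

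Genes outside the rule and markers of other cells were read in the members. All 10 fibroblast markers outside the rule (such as Col5a1, Col6a1 and Sparc) were detected in the members of mice 27, 29, 33 and 34, with summed levels of 8322, 2816, 4198 and 5580 CPM (UMIs scaled to a sum of 1000000 over the cells of the set), against 40.8, 420, 56.2 and 29.8 in the other cells of the same nodules. T cell markers (8 genes such as Cd3e and Trac) summed to 13.6 to 20.6 CPM in the members of these 4 mice, against 95.8 to 791 in other cells. Macrophage and monocyte markers (8 genes) summed to 51.6 to 154 against 338 to 1579, and hepatocyte markers (6 genes) to 0 in the members of mouse 27, the liver nodule. The stromal genes outside the rule were high, and markers of T cells and macrophages low, in the members of these 4 mice. The rule selects for such a profile, so these values describe the members and are no independent check of the label.

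Some signals of other cells remained. B cell markers (8 genes) summed to 567, 221, 5099 and 3724 CPM in the members of mice 27, 29, 33 and 34, against 9495, 1902, 6134 and 15067 in other cells. In mouse 33 the sum came mostly from Cd74 (4404) and Ebf1 (657), with Cd79a at 5.43, whereas members of mouse 34 had Cd79a at 109. Endothelial markers (9 genes) were higher in members than in other cells in mice 27 (103 against 36.9), 33 (176 against 39.3) and 34 (68.2 against 50.6) and lower in mouse 29 (145 against 317). Of these genes Flt1 and Eng passed 4-fold in mouse 33, at 126 and 46.7 against 4.22 and 3.22, and Pecam1 was at 0 by the rule. Neutrophil markers summed to 201 CPM in the members of mouse 29 (6 of 6 detected) and 1.09 in mouse 33 (1 of 6), against 10661 and 114 in other cells. Erythroid markers summed to 104 in mouse 29 against 2034 in other cells, but to 551 in mouse 33 against 434, so hemoglobin transcripts were not lower in its members. Epithelial markers summed to 158 in the members of mouse 29 against 2612. Of all members, 22 held at least 2 UMIs of B or T cell genes (17 in mouse 29, 3 in mouse 33 and 2 in mouse 34). Doublets were not called, and 141 members (8.69%) carried a cell barcode also present in another library, close to the 8.66% of all cells, while no barcode was a member in 2 libraries.

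Stromal transcripts were also found in lymphocytes of the lung nodule. In mouse 29, Mgp, which encodes matrix Gla protein, had a UMI in 99.1% of members (median 4756 UMIs per cell) and in 34.3% of cells with Ptprc and a Cd3 gene (median 1581), whereas in mouse 33 the shares were 73.8% (median 8126) and 0.759% (median 4121). Across the 8 rule genes, members of mouse 29 were 6.93 to 14.2 times higher than these T cells, a narrow range, against 94.0 to 374 times in mouse 33. The ratios of mouse 29 members to other cells stand beside this higher stromal signal in lymphocytes, whose part in them was not tested. Its part in the share of cells that were members in mouse 29 was not tested either. Without Mgp in the rule, 979 cells of mouse 29 and 97 of mouse 33 were chosen.

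The members near the threshold were numerous. Among cells without Ptprc, Pecam1 and Cdh5, 550 held exactly 2 rule genes and stayed outside, 542 held exactly 3 and were members, and 12 held all 8. In mouse 29 the 528 cells with 2 rule genes had a median of 14.5 UMIs of those genes and 2728 UMIs in all, and the 519 cells with 3 had 30 and 3462. Cells with at least 3 rule genes that were left out for a Ptprc UMI numbered 472 in mouse 29 and 24 in mouse 33.

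Calls of the antigen receptor that was profiled, which the rule did not use, were almost absent from members. Only 1 receptor type was profiled per mouse, so the other was not measured. A V(D)J call was found in 1 of 1486 members of mouse 29 (0.0673%) and in 0 members of the other 6 nodules, against 2.88% to 40.4% of other cells. The share was lower in members in 7 of 7 nodules, by a mean of 22.0 percentage points (difference -22.0, exact two-sided sign-flip test, p = 0.0156, the smallest that 7 nodules allow). Since cells with Ptprc had been removed by the rule, the comparison was repeated against other cells at 0 for Ptprc, where the difference was -4.22 points (exact test, p = 0.0156). Mice 31, 30 and 32 held 2, 2 and 1 members, so a share of 0 there says little. In the 4 nodules with at least 10 members the difference was -13.5 points (exact test, p = 0.125, the smallest that 4 nodules allow). Because the rule selects against lymphocytes, these tests are no independent check of the label.

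The targeted gene Eif3e (ENSMUSG00000022336) was transcribed in the members. It had a UMI in 43.1% of members of mouse 29 and 55.1% of mouse 33, and its level was 117 and 105 CPM. As a share of the UMIs of 14 eIF3 subunit genes it was 7.09% (95% interval 6.66 to 7.53) in members of mouse 29 against 6.43% in other cells, and 5.72% (4.66 to 6.93) in mouse 33 against 6.13%. In mouse 27 it was 3.36% (1.55 to 6.28) against 5.66%, and in mouse 34 7.74% (4.06 to 13.1) against 5.14%. Members of mice 27 and 34 may be host cells, as stated above. The counts do not tell floxed from deleted transcripts, and Ighg1, the locus that carries Cre, had no UMI in any member. It had none in the other cells of mice 27, 29, 32 and 33 either, and at most 24 in those of the other nodules, so its 0 says nothing particular of the stroma.

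Sex-linked transcripts differed between members and lymphocytes in the secondary tumor of mouse 27. Of its 11 members, 9 held a UMI of the Y-linked genes Ddx3y, Eif2s3y, Kdm5d or Uty (81.8%, 95% interval 48.2 to 97.7) and 2 held Xist, the transcript of the inactive X chromosome. Among its cells with a Cd79 gene and Ptprc, which mark B cells, 1.13% of 4671 held a Y-linked UMI and 87.6% held Xist. The members of this nodule were therefore mostly of the Y-linked pattern and its B cells mostly of the Xist pattern. In mouse 34, 8 of 14 members held a Y-linked UMI and 0 held Xist, where its Cd79 cells had 79.3% with a Y-linked UMI and its Cd3 cells had 33.5% with a Y-linked UMI and 47.7% with Xist. In mice 29 and 33 members and lymphocytes shared 1 pattern, with Xist in 86.7% and 90.7% of members and a Y-linked UMI in 2 of 1486 and 0 of 107.

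**Figure D2:**
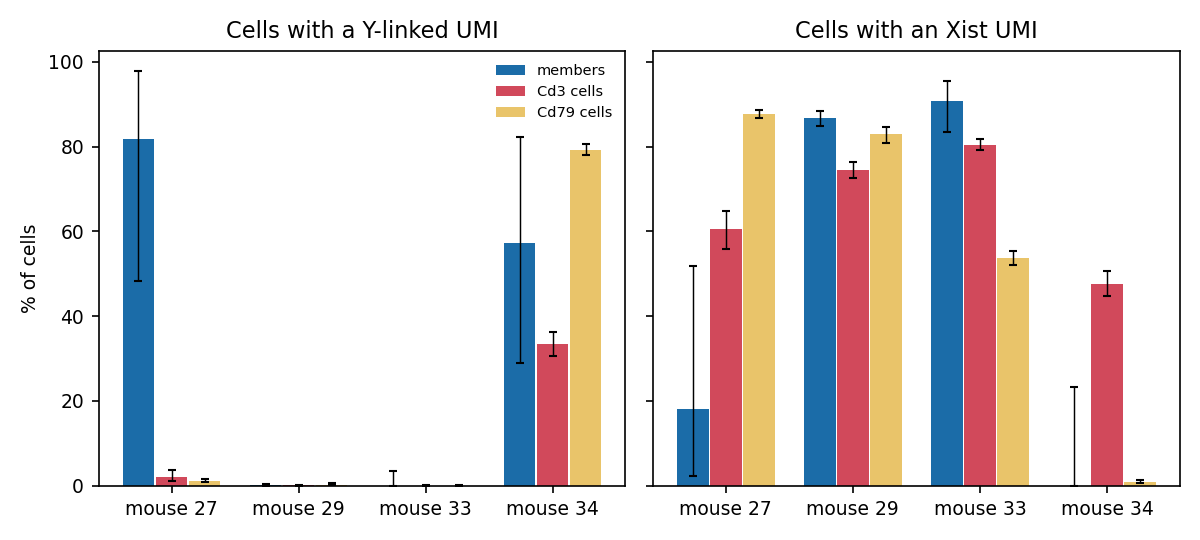
Share of cells (percent, with 95% Clopper-Pearson intervals) holding a UMI of 4 Y-linked genes (left) or of Xist (right) in members, Cd3 cells and Cd79 cells of mice 27, 29, 33 and 34. In mouse 27 the members stand at 81.8% for Y-linked genes and the Cd79 cells at 1.13%.

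The rule genes themselves varied between nodules. For Dcn the members of mice 27, 29, 33 and 34 had 3320, 1121, 5427 and 8772 CPM, lowest in mouse 29. For Mgp they had 2062, 16277, 1173 and 14052, high in both nodules that included lung. For Col1a1, a chain of type I collagen, they had 1382, 287, 155 and 164, highest in the 11 cells from liver. Pdgfra, a receptor for platelet-derived growth factor, was more even at 371, 630, 424 and 246. The cells were also chosen by different genes: Mgp was detected in 99.1%, Pdgfra in 83.0%, Dcn in 61.0% and Lum, another proteoglycan, in 4.58% of mouse 29 members, whereas Dcn was detected in 96.3% and Col1a2 in 91.6% of mouse 33 members.

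**Figure D3:**
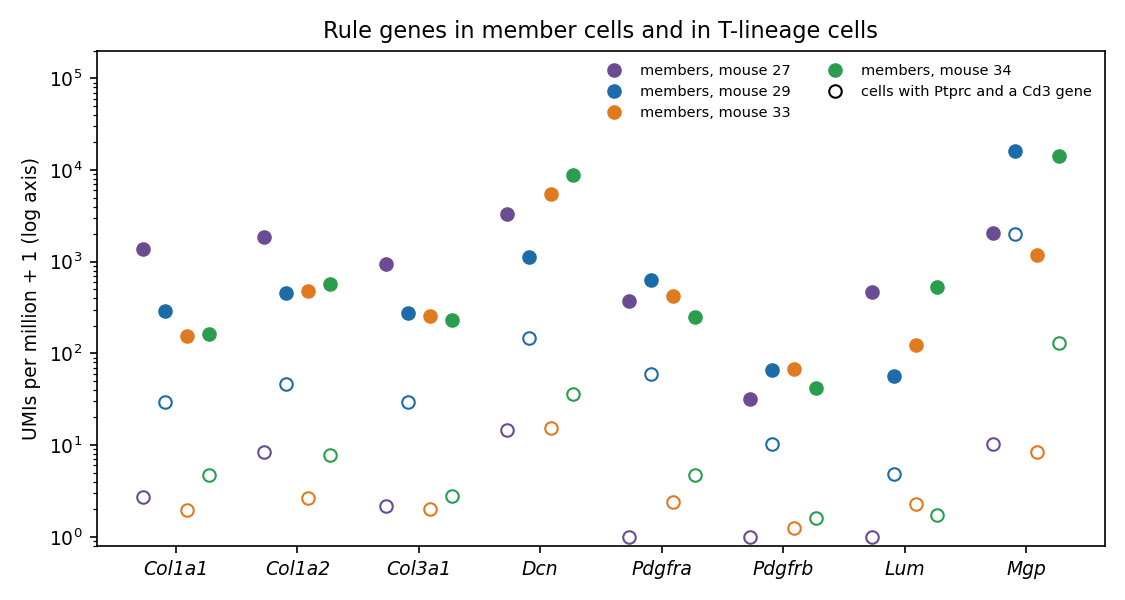
Levels of the 8 rule genes (CPM plus 1, log axis) in members (filled points) and in cells with Ptprc and a Cd3 gene (open points) of mice 27, 29, 33 and 34. Among members Dcn was lowest in mouse 29 (1121) and Mgp highest there (16277), and the open points of mouse 29 lie above those of the other mice for each gene.

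Against the other cells of the same nodule, members carried a broad stromal program. A gene was counted when its level with 10 CPM added differed at least 4-fold, and no test was made because all genes of the chosen cells count as used by the rule. In mouse 29, 225 of 7147 genes were higher by this measure (3.15% of genes) and 392 lower (5.48%), and in mouse 33, 927 of 7601 were higher (12.2%) and 384 lower (5.05%). Outside the rule, 176 genes were at least 4-fold higher in both nodules. This count was 2 when members were set only against cells without Ptprc, among which mouse 29 holds many cells with 1 or 2 rule genes.

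Of the 12 other collagen chains, 6 were 4-fold higher than in other cells in mouse 29 (Col5a1, Col5a2, Col6a1, Col6a2, Col6a3 and Col12a1, list median log2 ratio 2.00) and 12 of 12 in mouse 33 (median 3.18). Of the matrix glycoproteins and proteoglycans, 12 of 22 and 22 of 23 were higher, and of complement components and regulators 6 of 8 and 9 of 10. Stromal chemokines and cytokines followed the same order, with 6 of 20 higher and 1 lower (Ccl21a) in mouse 29 and 16 of 18 higher in mouse 33. Proliferation genes went the other way, with 2 of 4 lower in mouse 29 and 3 of 8 lower in mouse 33 and 0 higher. Mki67, which marks cycling cells, stood at 6.55 and 31.5 CPM in the members of mice 29 and 33 against 74.3 and 176 in other cells.

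The 15 genes outside the rule with the largest log2 ratio, as a mean over mice 29 and 33, included secreted inhibitors, matrix proteins and inflammatory mediators. Serping1, which encodes the C1 inhibitor of complement, had 732, 2214, 3710 and 3083 CPM in members of mice 27, 29, 33 and 34 against 1.62, 297, 17.4 and 10.4 in other cells. C3, the central complement component, had 1103, 1126, 5743 and 3861 against 10.3, 190, 99.8 and 21.2. Both were higher in members of all 4 nodules, and the gap was smallest in mouse 29. Bgn, the matrix proteoglycan biglycan, had 2052, 1227, 1408 and 1637 against 3.41, 166, 7.10 and 3.87. Cxcl1, a chemokine for neutrophils, had 3300, 1479, 1437 and 1883 against 9.53, 270, 12.8 and 3.75. Ccl7, a chemokine for monocytes, was less even among the members, at 1062, 443, 2259 and 409. The others were Csmd1, Aebp1, Tnfaip6, Igfbp7, Gpx3, Ifi205, Rarres2, Gfpt2, Sparc and Cp, with mean log2 ratios between 4.11 and 5.01.

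Clustering of the 1623 members gave 10 groups that parted largely by nodule. The genes below define the clusters and are a description, and a cluster held mostly by 1 library may be that library rather than a cell type. Cluster 2 (376 cells, all of mouse 29) was alveolar-fibroblast-like, with 6 of 8 fixed markers raised and Inmt, an indole methyltransferase, at 2754 CPM against 368 in other members. Cluster 1 (377 cells, 376 of mouse 29) was led by Spp1, which encodes osteopontin, at 5334 against 88.6, Grem1, an antagonist of bone morphogenetic proteins, at 420 against 22.0, and Postn, a matrix protein, at 350 against 46.4. It was given no name because none of the fixed markers was among its 10 leading genes. Together with cluster 0 (395 cells, 391 of mouse 29, led by Ifi202b, Yod1 and Gdnf and also unnamed), these 3 clusters held 25.3% to 26.3% of mouse 29 members each.

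Cluster 3 (162 cells, 160 of mouse 29) was led by heat shock genes, with the chaperonin gene Hspe1 at 2197 CPM against 426. Smaller clusters had markers of specialised stroma. Cluster 5 (53 cells, 44 of mouse 29 and 6 of mouse 27) was mesothelial-like with 8 of 8 markers raised, among them Msln at 221 against 1.46 and Upk3b at 198 against 0. Cluster 7 (51 cells, 47 of mouse 29) was mural-like with 8 of 10 markers, Rgs5 of pericytes at 2369 against 28.6 and the smooth muscle myosin Myh11 at 3141 against 60.0. Cluster 8 (25 cells of mouse 29, led by Cyp2e1 and Hhip) had 6 of 10 mural markers raised, with a sum of 4280 CPM against 1237 in other members. It stayed unnamed because none of the fixed markers was among its 10 leading genes. Cluster 6 (51 cells, 49 of mouse 29) was led by the neutrophil genes S100a9 and S100a8, detected in 43.1% and 37.3% of its cells. Cluster 9 (12 cells of mouse 29) was led by the lung surfactant genes Sftpa1 and Sftpc, with 7 of 8 epithelial markers raised. The leading genes of these 63 cells thus went against the label. Fibroblast markers outside the rule summed to 1610 CPM in cluster 6 and 1046 in cluster 9, against 3065 and 3052 in other members, so the signal was mixed.

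Members of the thymus nodule formed 1 cluster of their own. Cluster 4 held 102 of 107 members of mouse 33 (95.3%, 95% interval 89.4 to 98.5), 10 of 14 of mouse 34, and 6 of 1486 of mouse 29. It was adventitial-fibroblast-like with 6 of 8 markers raised, while 4 of 8 markers of reticular stromal cells were raised as well. Its leading genes were Ly6c1, Cxcl9, Ccl21a and Ly6a, followed among the first 10 by Gbp5, H2-Aa and Cd74. At a finer resolution that gave 13 clusters, 102 members of mouse 33 still shared 1 cluster.

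**Figure D4:**
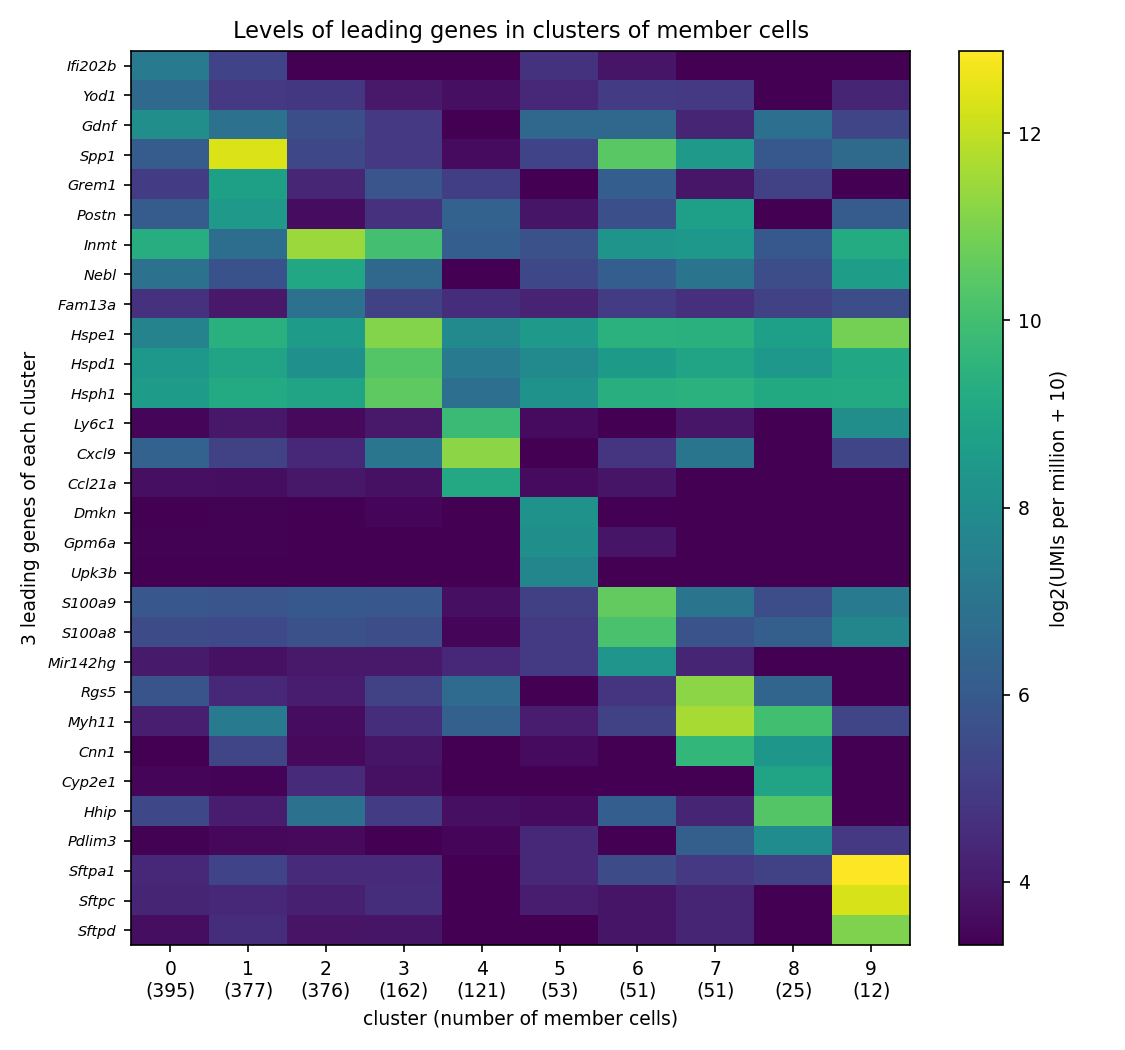
Levels of the 3 leading genes of each cluster (rows, log2 of CPM plus 10) in the 10 clusters of members (columns, number of cells in brackets). Each cluster stands out for its own 3 genes, with Spp1 in cluster 1 (5334), Inmt in cluster 2 (2754) and Cxcl9 in cluster 4 (2399).

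The members of mouse 33 (thymus) and mouse 29 (lung) were then set side by side. With 1 library each there is no test, and the values compare 2 nodules and not 2 sites. With 10 CPM added, 194 of 6691 genes were at least 4-fold higher in mouse 33 (2.9% of genes) and 105 lower (1.57%), and the median log2 ratio over all genes was 0.15. In the other cells of the same nodules, 80 of 7050 genes were higher (1.13%) and 338 lower (4.79%). Leaving out clusters 6 and 9 gave 199 higher and 102 lower of 6682, and members with at least 4 rule genes gave 195 and 113 of 6695.

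Most matrix genes stayed under 4-fold, a mark that 2.9% of all genes passed as higher in mouse 33 and 1.57% as lower. None of 12 collagen chains passed 4-fold (median log2 ratio 0.45), and Col6a3 stood at 148 in mouse 29 and 172 in mouse 33. Of 23 matrix glycoproteins and proteoglycans, 3 were higher in mouse 33 (Vcan, Dpt and Nid1) and 1 lower (Mfap4). Dpt, the collagen-binding dermatopontin, stood at 78.9 in mouse 29, 552 in mouse 33 and 437 in mouse 34. Mfap4, a protein of elastic fibers, stood at 364, 68.4 and 205, and elastin (Eln) at 251, 79.3 and 40.9. Of 15 matrix enzymes and inhibitors, Adamts5 was higher (33.9 against 175) and Timp3 lower (844 against 169) in mouse 33.

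Genes of the TGF-β pathway and contraction were on the lung side, with 4 of 17 at least 4-fold lower in mouse 33 and 0 higher (median log2 ratio -0.71, against 1.57% of all genes lower). The other cells of the 2 nodules differed in the same direction, with 6 of 15 lower in mouse 33 (among them Ccn2, Acta2 and Tagln), 0 higher and a median of -1.50, so the difference was not found in members alone. Tgfb2, a ligand of the pathway, had 168 CPM (95% Poisson interval 159 to 177) in mouse 29 and 11.9 (5.96 to 21.4) in mouse 33. Acta2, smooth muscle actin, had 443 and 33.7, and its levels in mice 27 and 34 were 794 and 273. Tagln and Ccn2, both targets of the pathway, had 609 and 592 in mouse 29 and 55.4 and 118 in mouse 33. Within mouse 29 Acta2 was spread over clusters, at 198 in cluster 2, 657 in cluster 1 and 2984 in the mural-like cluster 7.

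Chemokines and cytokines were on the thymus side, with 8 of 20 at least 4-fold higher in mouse 33 and 0 lower (median log2 ratio 1.70, against 2.9% of all genes higher). In the other cells of the 2 nodules 2 of 14 were higher (Cxcl13 and Cxcl9) and 5 lower, with a median of -1.86. Ccl19, which attracts T cells through CCR7, had 68.6 CPM (63.0 to 74.5) in mouse 29 and 876 (817 to 939) in mouse 33, and was detected in 10.3% and 61.2% of members when each cell was thinned to 2000 UMIs (18.6% and 83.2% before thinning, and 1.72% in Cd3 cells of mouse 29). Cxcl13, which attracts B cells, had 78.4 and 848, and 491 in mouse 34, where the other cells of these 3 mice had 3.70, 67.7 and 27.4. In mouse 29 its UMIs came from 2.02% of members, in mouse 33 from 34.6%. Ccl21a had 3.40 and 534, in 16 of 107 mouse 33 members, although near-identical copies of this gene make its counts uncertain. Cxcl9, a chemokine induced by interferon-γ, had 40.3 (36.1 to 44.9) in mouse 29 and 2528 (2427 to 2633) in mouse 33, in 3.70% and 68.4% of thinned members (5.32% and 82.2% before). The other cells of mice 29 and 33 had 6.90 and 96.9 for Cxcl9. In mouse 34, whose nodule also included thymus, it stood at 40.9 (8.44 to 120), under the interval of mouse 33. Not all chemokines passed 4-fold. Cxcl1 was nearly level at 1479 and 1437. Cxcl10 had 999 and 1637, and Cxcl12, which retains lymphocytes and precursors, 328 and 921, both higher in mouse 33 but under 4-fold. The alarmin Il33 had 76.2 and 508 and Il15, a cytokine for natural killer and memory T cells, 8.74 and 85.8.

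Of the complement genes, 3 of 9 were at least 4-fold higher in mouse 33 (C3, Cfb and Cd55), against 2.9% of all genes, and 0 lower. In other cells 1 of 9 was higher (Cfd) and 2 lower, against 1.13% and 4.79% of all genes. C3 was detected in 84.3% and 97.2% of members, with 1126 and 5743 CPM. Cfb, factor B of the alternative pathway, had 8.98 and 218. Growth factors were mixed. Bmp5, a bone morphogenetic protein, Grem1, and the Wnt amplifier Rspo3 were lower in mouse 33, at 156, 145 and 90.2 in mouse 29 and 2.17, 13.0 and 6.52 in mouse 33. Igfbp5, a binding protein for insulin-like growth factors, was higher, at 39.1 and 659.

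Transcription factors of organ position differed for single genes. Tbx4, a factor of lung mesenchyme, had 106 CPM in mouse 29 and 0 UMIs in mouse 33, where the floor of 3 UMIs is 3.26, so it was at least 32.4-fold lower there. Tcf21 and Tbx5 had 40.6 and 43.1 in mouse 29 and 4.34 and 8.69 in mouse 33. Wt1, which marks mesothelium and some stroma, and Twist1 went the other way, at 11.0 and 5.10 in mouse 29 and 84.7 and 67.3 in mouse 33. In the 11 members of the liver nodule, Gata6 had 330, Wt1 206 and Gata4 41.2, the last from 4 UMIs. Of these 11 cells, 6 were in the mesothelial-like cluster 5, where Gata6 had 317, Wt1 281 and Gata4 23.0, so the values may be those of mesothelium. Tbx4 had no UMI in mice 27 and 34, where the floors are 30.9 and 40.9.

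Subtype markers followed the clusters. Of 6 alveolar fibroblast markers tested, 4 were at least 4-fold lower in mouse 33 (Npnt, Inmt, Itga8 and Limch1), and of 8 adventitial markers 5 were higher (Pi16, Cd34, Ly6a, Clec3b and Dpt). Over all genes 1.57% were lower and 2.9% higher. In the other cells 3 of 3 alveolar markers were lower in mouse 33 (Inmt, Itga8 and Limch1) and 1 of 2 adventitial markers was higher (Ly6a). Itga8, an integrin chain, had 332 CPM in mouse 29 and 1.09 in mouse 33, and Inmt 911 and 42.4. Ly6a, known as Sca-1, had 45.9 and 2017, Ly6c1 of the same family 7.28 and 918. Spp1 had 1719 in mouse 29, from 26.9% of members (450 in the other cells of that nodule), and 0 UMIs in mouse 33, at least 528-fold lower by the floor. Cdo1, an enzyme of cysteine breakdown, had 1079 and 4.34.

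Antigen presentation and interferon response genes were on the thymus side, with 8 of 14 at least 4-fold higher in mouse 33 and 0 lower (median log2 ratio 2.24, against 2.9% of all genes higher). In the other cells of the 2 nodules 5 of 14 were also higher in mouse 33 (among them Cd74, H2-Aa, H2-Ab1 and Gbp2, median 0.88), so the list was not high in members alone. Cd74, the invariant chain of MHC class II, had 172 CPM (163 to 182) in mouse 29, 4404 (4270 to 4542) in mouse 33, 2797 in mouse 34 and 505 in mouse 27. It was detected in 15.8% and 90.8% of thinned members of mice 29 and 33 (26.6% and 94.4% before), where Cd3 cells of the same nodules had 23.5% and 61.3%. These Cd3 cells were not thinned, and had a median of 1581 and 4121 UMIs against 4756 and 8126 in unthinned members. Neither share of the members is therefore at the depth of the Cd3 cells. By level, Cd74 had 626 CPM in Cd3 cells of mouse 29, above its members, and 1549 in those of mouse 33, below its members. H2-Aa and H2-Ab1, the class II chains, had 41.3 and 47.1 in mouse 29 and 1212 and 1082 in mouse 33, and Ciita, the class II transactivator, 0.849 and 23.9. The other cells of mouse 33 had 4624 for Cd74 and 1628 for H2-Aa, above its members, and 939 for H2-Ab1, below them. Against those cells, 3 of 14 list genes were 4-fold higher in its members (Irf1, Gbp2 and Bst2) and 0 lower. Gbp2, a GTPase induced by interferon, had 50.6 and 1286. In mouse 34 Gbp2 had 0 UMIs (95% upper limit 50.3). Its Cd74 level of 2797 rested on few cells, being 1170 in its 10 members of cluster 4 without the other 4, of which 2 were in the neutrophil-led cluster 6. The class I genes H2-K1 and B2m had 585 and 4535 in mouse 29 and 2422 and 7088 in mouse 33.

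B cell transcripts in these cells were measured beside the class II genes. Members of mouse 33 held 811 Cd74 UMIs per UMI of Cd79a, which is part of the B cell receptor complex, whereas Cd79 cells of that nodule held 24.2 and Cd3 cells 29.6. Cells of that nodule without Ptprc and with Pecam1 or Cdh5 held 51.3. The ratio of the members rests on 5 Cd79a UMIs in cells chosen for 0 Ptprc, and the source of their Cd74 was not tested. In mouse 34 the members held 25.6 against 11.5 in Cd79 cells, and in mouse 29 they held 30.2 against 3.12. Within cluster 4, Cd74 had 747 CPM in the 6 cells of mouse 29, 4533 in the 102 of mouse 33 and 1170 in the 10 of mouse 34, and Gbp2 had 93.4, 1293 and 0. Ebf1, a transcription factor of B cells that some stromal cells also express, had 35.6 in mouse 29 and 657 in mouse 33 members.

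Stress genes were on the lung side. Of 12 immediate early and heat shock genes, 2 were at least 4-fold lower in mouse 33 (median log2 ratio -0.76, against 1.57% of all genes lower), both of them near-identical copies of inducible Hsp70. Hspa1a had 1738 and 105 CPM and Hspa1b 1117 and 42.4, and Hspa1a was detected in 74.0% and 16.3% of thinned members (86.1% and 25.2% before), with 69.7% in Cd3 cells of mouse 29. The other cells followed, with 4 of 12 lower in mouse 33 (Jun, Atf3, Hspa1a and Hspa1b). These genes are known to respond to tissue dissociation, whose part in the difference was not tested. The transcription factor genes Fos and Jun were high in both, at 13311 and 13118 in mouse 29 and 7004 and 6775 in mouse 33.

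**Figure D5:**
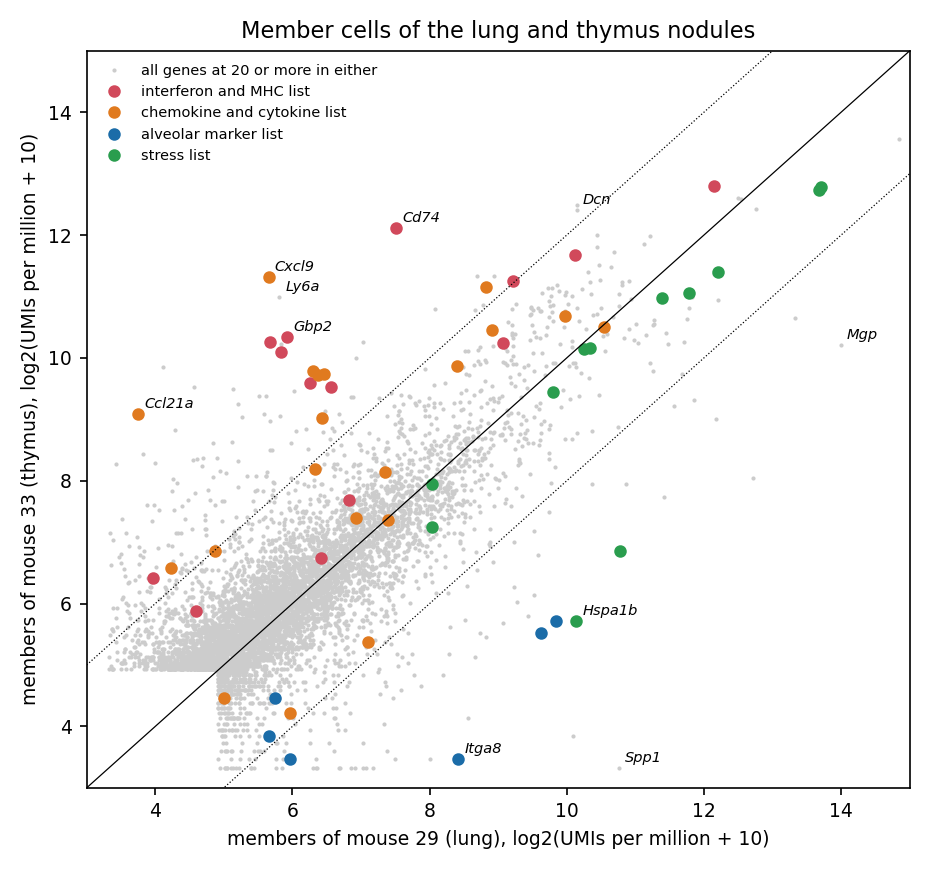
Level of each gene in members of mouse 29 (lung, x axis) and mouse 33 (thymus, y axis), both as log2 of CPM plus 10, for genes at 20 or more in either nodule. Interferon and MHC genes and chemokines lie above the upper dotted line, which marks 4-fold, in 8 of 14 and 8 of 20 cases, and 4 of 6 alveolar markers lie under the lower one.

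The promoters of genes that were high in mouse 33 are shown for the letters that interferon-activated factors are known to bind. The 250 bases before the start were read from RefSeq (GRCm38.p6) on the strand of the gene, and these 4 genes were chosen after their values were seen. Capitals mark TTCNNNGAA, the gamma-activated site, and GAAANNGAAA (TTTCNNTTTC on the other strand), the interferon response element bound by IRF proteins. Bst2, which encodes tetherin, had 66.7 CPM in mouse 29 and 762 in mouse 33, and Gbp5, a GTPase of the Gbp2 family, 13.6 and 728. The windows are chr3:142620413-142620662 on the plus strand for Gbp2, chr3:142496684-142496933 on the plus strand for Gbp5, chr8:71537473-71537722 on the minus strand for Bst2, and chr5:92328080-92328329 on the minus strand for Cxcl9.
Gbp2: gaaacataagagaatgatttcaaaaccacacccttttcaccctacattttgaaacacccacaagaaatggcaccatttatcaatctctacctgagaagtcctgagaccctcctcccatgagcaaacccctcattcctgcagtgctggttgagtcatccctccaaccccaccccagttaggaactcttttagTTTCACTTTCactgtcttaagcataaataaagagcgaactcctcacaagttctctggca
Gbp5: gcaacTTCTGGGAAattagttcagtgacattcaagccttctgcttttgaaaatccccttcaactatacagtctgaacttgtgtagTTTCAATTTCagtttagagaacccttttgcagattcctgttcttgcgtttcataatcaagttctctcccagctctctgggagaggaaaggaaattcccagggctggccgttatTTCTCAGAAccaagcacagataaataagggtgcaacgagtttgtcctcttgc
Bst2: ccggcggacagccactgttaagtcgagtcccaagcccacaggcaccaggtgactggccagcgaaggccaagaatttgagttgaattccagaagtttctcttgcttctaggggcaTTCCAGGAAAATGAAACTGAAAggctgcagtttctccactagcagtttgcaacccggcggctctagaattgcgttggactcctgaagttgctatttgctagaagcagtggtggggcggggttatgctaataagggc
Cxcl9: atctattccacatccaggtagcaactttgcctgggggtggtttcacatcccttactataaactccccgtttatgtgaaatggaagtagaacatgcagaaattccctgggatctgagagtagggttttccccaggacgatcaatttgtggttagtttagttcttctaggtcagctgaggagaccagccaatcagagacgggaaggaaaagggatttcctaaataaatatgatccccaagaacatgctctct

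Gbp2 held 1 response element starting 59 bases before the start (position -59). Gbp5 held gamma-activated letters at -245 and -52 and a response element at -165. Bst2 held gamma-activated letters at -136 that overlap a response element at -130, which in turn overlaps another at -124. Cxcl9 held neither, which says only that these letters are not in this window. Of 14 interferon and MHC genes, 11 had a promoter in the table that was used, of which 6 held the response element letters (B2m, Bst2, Gbp2, Ifit1, Ifit3 and Isg15) and 2 the gamma-activated letters (Bst2 and Irf1). Over all 32851 promoters of this length, 2.98% held the response element letters and 7.02% the gamma-activated letters. Isg15, Ifit1 and Ifit3 were among the genes that stayed under 4-fold between the nodules, with 104, 75.0 and 14.1 CPM in mouse 29 and 197, 96.7 and 48.9 in mouse 33.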

How the data were processed

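Nodules were dissociated, erythrocytes lysed and dead cells removed, and droplet libraries were made. Because the study's methods give a 3′ kit and the labels a 5′ kit, the transcript end counted is not settled. The authors deposited unnormalized UMI counts for each cell (32285 genes, submitters' processing notes: GRCm38, mm10), and the V(D)J files were used for the presence of a call. Aligner and cell calling are not given in the sources used here. Library totals ran from 19264039 to 123456962 UMIs.

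Cells with at most 10% mt- UMIs were kept (75548 of 77442). UMIs were summed over members of a nodule and scaled to a sum of 1000000 (CPM). Genes at 20 or more in either set were compared with 10 added, and 4-fold was the mark. Shares carry 95% Clopper-Pearson intervals and levels exact Poisson intervals, and floors rest on 3 counts. All cover counting error only. The nodule was the unit of every test. The 4 planned count-model comparisons between groups of nodules were not fitted, because 2 nodules had at least 20 members, both of BCR mice. Members were clustered with scanpy 1.11.5 and leidenalg 0.10.2 (Python 3.11.15, scipy 1.17.1). Named genes were the 15 with the largest mean log2 ratio of members over other cells over the 2 nodules with at least 20 members, at 50 or more CPM in members of at least 4 nodules, and the leading genes of clusters and contrasts. Others were named from the gene lists, or after their values were seen (Gbp5, Hspe1). Genes with close copies (Ccl21a, Hspa1a, H2-K1, Ly6c1 and hemoglobin genes) can share reads. Permutation, flip and fold functions were tested on simulated data. The members and lists were chosen with earlier results of these data known. No doublet caller was run.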

Additional observations from a re-analysis of the deposited data

Results flagged for a closer look

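The share of cells that were members in mouse 29 (10.6%) stood far from the other 4 BCR mice, with a gap to the next of 0.900 of the whole range. The share of members with a V(D)J call in the same mouse (0.0673%, 1 cell of 1486) also stood apart because the other 4 BCR mice had 0, from 2 to 107 members each. About 1 in 20 groups is picked out in this way by chance.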

How the results depend on the processing

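The difference in member share between TCR and BCR mice kept its sign and stayed short of the threshold under all 14 alternatives, and leaving out 1 mouse at a time gave -2.97 to -0.339 percentage points. The lowest size came without mouse 29. With mouse 29 kept, its share alone held this test short of the threshold, so those alternatives could not decide the question. For the share with a V(D)J call, leaving out 1 mouse gave -25.1 to -18.9 points, and the 4 nodules with at least 10 members gave -13.5 (exact test, p = 0.125), a choice made after seeing the data. The count of 176 genes higher in members of both nodules was 2 against cells without Ptprc and 373 with 1 CPM added in place of 10. The 15 named genes kept their direction under every alternative run. The choices to leave out Mgp, shared barcodes, lymphocyte signal in the gene comparison, clusters 6 and 9, or cells with 3 rule genes were also made after seeing the data. The planned count-model comparisons and their alternatives were not run. No paired analysis was possible because the BCR and TCR groups share no mouse number. Depth limits the 30 members outside mice 29 and 33, where 3 UMIs correspond to 30.9 to 563 CPM.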
